A study of Mus musculus with 16 samples.

Results

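Mouse CD8+ T cells kept in B16F10 melanoma supernatant to which methionine had been added (supplemented supernatant) were compared with the same cells kept in fresh medium that contained methionine (complete fresh medium). The comparison takes the 8 libraries of these 2 media out of 16 in the series, chosen by their labelled medium. It asks what supernatant still changes when methionine is present on both sides. All 16 libraries were made from total RNA of CD8+ T cells of strain C57BL/6. The cells had been stimulated through CD3 and CD28 with antibodies for 2 days and then cultured for 36 h in 1 of the 4 media, with 4 libraries per medium. The other 2 media were fresh medium lacking methionine (methionine-free fresh medium) and B16F10 supernatant without supplement (supernatant). B16F10 is a melanoma line of C57BL/6 origin. The labels give neither the amount of methionine added nor what else the tumour cells had used up or released. A difference in the level of methionine and everything else that differed between the media can therefore not be told apart here. Whether the 4 libraries of a medium derive from different animals or cultures is not stated, so p-values measure the spread between libraries. Of 17159 genes in the deposited table, the 12241 with a mean of at least 10 depth-normalized reads (reads divided by 1 scaling factor per library) over the 8 libraries were tested.

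As background, a shortage of an amino acid leaves transfer RNA uncharged, which activates the kinase GCN2 and favours translation of the transcription factor ATF4. Stress of mitochondria or the endoplasmic reticulum and growth signalling through mTORC1 also raise ATF4, and its targets include amino acid transporters, enzymes of serine, glycine and asparagine synthesis, and aminoacyl-tRNA synthetases. Activated CD8+ T cells take up glucose and run glycolysis with help of the transcription factors HIF-1 and MYC, build sterols and fatty acids under the SREBP factors, and leave a quiescent state that FOXO factors maintain.

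Recovered reads per library ran from 25799636 to 42308209 over the 8 libraries, with the shallowest in complete fresh medium. On the first principal component, with 71.7% of the variance among the 8 libraries, the media separated, and the next held 5.70%. The labelled cell type was met by its markers: Cd8a measured 34719 ± 749 depth-normalized reads (SD, n = 4) in supplemented supernatant and 24492 ± 356 (SD, n = 4) in complete fresh medium. All 8 CD8 T cell markers in the table passed the filter. Of these, 3 were higher and 3 lower in supplemented supernatant (median log2 fold change -0.039), against 32.0% and 32.6% of all genes tested. These are bulk libraries, so fewer cells of a type and less RNA per cell cannot be told apart. Reads of near-identical family members, such as granzyme, Klra and Bcl2a1 genes, may have been split between them, and the strand used in counting is not stated.

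Supplemented supernatant and complete fresh medium differed at 7914 of the 12241 genes tested (64.7%, limma, Benjamini-Hochberg adjusted p below 0.05). Of these, 3920 (32.0%) were higher and 3994 (32.6%) lower in supplemented supernatant, and over all genes tested the median log2 fold change was -0.0046. A change of at least 2-fold was reached by 291 higher (2.38%) and 275 lower (2.25%) genes, together 4.62%. Genes of the amino acid response, tRNA synthetases, serine and folate synthesis, ribosome biogenesis and T cell cytokines mostly rose, and those of glycolysis, hypoxia, sterol synthesis, mitosis and FOXO targets mostly fell. All 4 supplemented supernatant libraries lay above the other 12 libraries of the series at 1360 genes (11.1%) and below them at 1050 genes (8.58%). From the deposited FPKM values (fragments scaled to transcript length and library size) the same test called 2034 genes, and 6624 with a block for the replicate number. Of the results on single genes given below, 27 were not called from FPKM, with the direction kept. These were the interaction of Slc43a2 and the differences between supplemented supernatant and complete fresh medium of Aldoa, Ccne1, Cd274, Cd4, Cox7b, Dars, Dot1l, Fasl, Gzma, Hsp90b1, Jak3, Ltb, Mcm2, Mki67, Mt1, Nr1h3, Paics, Pdia3, Ptger2, Ptger4, Slc16a1, Slc36a1, Slc38a9, Stat5a, Unc13d and Uqcrq. With the block in FPKM all of them but Nr1h3 were called.

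**Figure D1:**
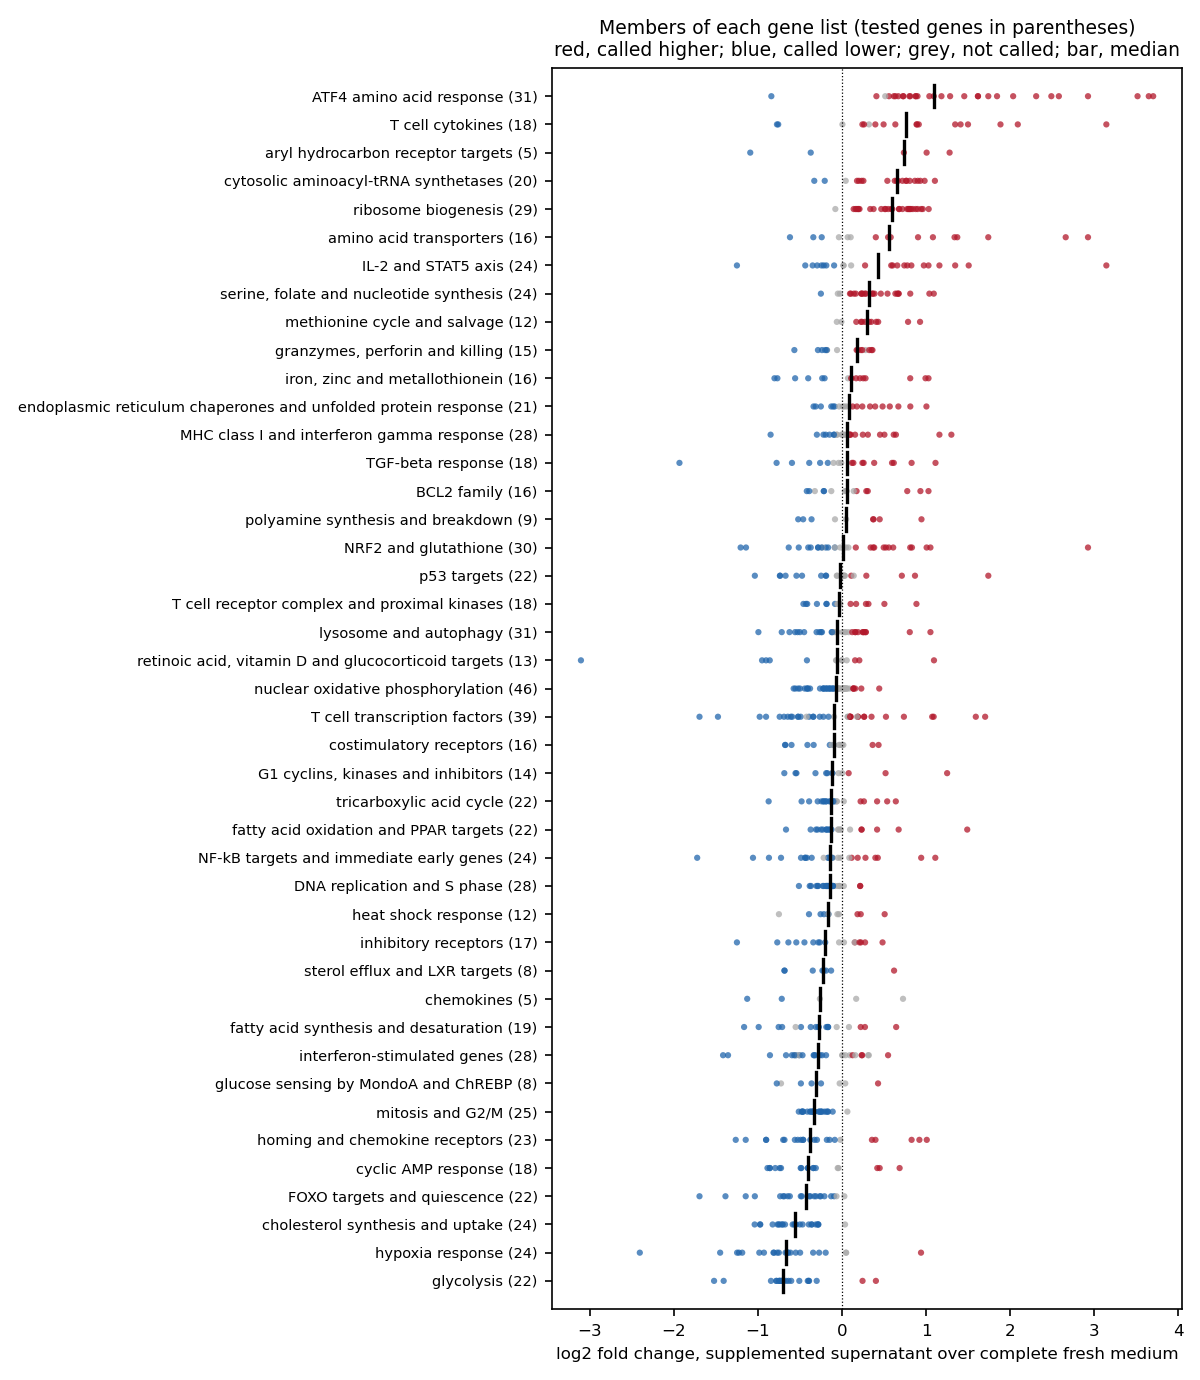
Each point is 1 tested gene of a named list, placed by its log2 fold change of supplemented supernatant over complete fresh medium on the horizontal axis, with the lists ordered by their median (black bar). Red points were called higher, blue points were called lower and grey points were not called by limma, and the ATF4 list (median 1.09) and glycolysis (median -0.70) form the ends of the order.

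The promoters of some genes that rose hold the letters that ATF4 and C/EBP proteins are known to bind together. The 5 shown were picked from windows that hold these letters, to place them beside the values that follow. The windows are RefSeq's (GRCm38.p6), from 250 bases before to 50 bases after a transcript's start, written 5′ to 3′ along the gene, with matches to TGATGNAA on either strand (reverse complement TTNCATCA) in capitals. Nupr1 encodes a stress-induced chromatin protein (window chr7:126625421-126625720, minus strand), Slc7a11 the cystine importer xCT (chr3:50443564-50443863, minus strand) and Asns asparagine synthetase (chr6:7693160-7693459, minus strand). Slc1a4 encodes a neutral amino acid transporter (chr11:20332664-20332963, minus strand) and Gars glycyl-tRNA synthetase (chr6:55037751-55038050, plus strand).
Nupr1: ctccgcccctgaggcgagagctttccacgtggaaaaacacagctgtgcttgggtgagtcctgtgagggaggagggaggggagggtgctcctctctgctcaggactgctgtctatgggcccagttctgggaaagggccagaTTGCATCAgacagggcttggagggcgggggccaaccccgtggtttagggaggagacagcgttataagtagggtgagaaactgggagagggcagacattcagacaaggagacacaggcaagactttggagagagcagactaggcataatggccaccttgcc
Slc7a11: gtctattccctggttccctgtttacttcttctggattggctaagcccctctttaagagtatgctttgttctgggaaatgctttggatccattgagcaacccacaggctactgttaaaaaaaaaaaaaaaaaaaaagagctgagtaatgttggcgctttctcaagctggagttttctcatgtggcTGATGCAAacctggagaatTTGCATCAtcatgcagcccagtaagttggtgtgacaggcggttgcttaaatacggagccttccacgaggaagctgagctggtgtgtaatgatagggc
Asns: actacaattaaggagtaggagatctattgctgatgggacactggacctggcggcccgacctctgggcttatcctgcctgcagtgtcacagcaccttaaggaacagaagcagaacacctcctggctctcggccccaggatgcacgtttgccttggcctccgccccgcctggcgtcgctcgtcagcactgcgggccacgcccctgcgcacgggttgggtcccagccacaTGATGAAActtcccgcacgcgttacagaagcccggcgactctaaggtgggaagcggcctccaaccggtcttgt
Slc1a4: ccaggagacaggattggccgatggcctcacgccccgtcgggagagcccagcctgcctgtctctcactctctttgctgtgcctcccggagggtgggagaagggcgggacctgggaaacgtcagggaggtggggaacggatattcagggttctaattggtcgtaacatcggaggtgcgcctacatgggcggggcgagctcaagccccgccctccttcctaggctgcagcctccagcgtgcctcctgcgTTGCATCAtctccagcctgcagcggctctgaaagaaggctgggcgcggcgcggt
Gars: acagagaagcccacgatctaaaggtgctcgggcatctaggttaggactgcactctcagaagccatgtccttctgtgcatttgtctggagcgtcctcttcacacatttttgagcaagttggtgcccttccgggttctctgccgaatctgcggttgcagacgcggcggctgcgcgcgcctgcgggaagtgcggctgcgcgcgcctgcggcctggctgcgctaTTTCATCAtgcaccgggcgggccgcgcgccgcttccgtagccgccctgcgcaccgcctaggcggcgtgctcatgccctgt
Of 32851 windows in the table, 3.97% held the motif. By windows, 10 of 33 of the ATF4 list (30.3%) and 5 of 13 of the tRNA synthetases (38.5%) held the motif. Of 17 windows of the amino acid transporters, 2 (11.8%) held the motif. Among the 31 genes of the ATF4 list, 28 had a window and 10 of these genes held it: Asns, Atf3, Chac1, Jdp2, Nupr1, Pck2, Pycr1, Slc7a11, Trib3 and Vldlr. Of the 20 tRNA synthetase genes, 13 had a window and 5 held it, which were Aars, Gars, Iars, Tars and Yars. Of 16 amino acid transporter genes, 12 had a window and 2 held the motif, Slc7a11 and Slc1a4. Slc6a9 (log2 fold change 2.66), Atf5 (2.58) and Ddit3 (1.84) had a window without the motif. A match is a description of these letters and not a measured binding site.

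Of the 31 tested genes of the amino acid response list, 29 rose and 1 fell in supplemented supernatant, against 32.0% and 32.6% of all genes. Their median log2 fold change was 1.09, against -0.0046 for all genes. In 17 of the 31, all 4 supplemented supernatant libraries lay above the other 12 libraries, against 11.1% of all genes tested. The list was put together with earlier results of these data known, as were all lists here.

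Cth, which encodes cystathionine gamma-lyase, the enzyme that makes cysteine from cystathionine (chr3:157894248-157925077, minus strand, GRCm38), measured 1549, 1711, 1709 and 1579 depth-normalized reads in supplemented supernatant and 122, 128, 136 and 114 in complete fresh medium. Every supplemented supernatant library lay more than 10 times above every complete fresh medium library (log2 fold change 3.70 ± 0.0695 (SE), adjusted p = 4.4e-25). Of all genes tested, 55.6% were called with no overlap between the 2 media. Without methionine Cth was lower still, at 31.7 ± 8.67 (SD, n = 4) in methionine-free fresh medium and 54.2 ± 4.02 (SD, n = 4) in supernatant.

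Aldh1l2, a mitochondrial folate enzyme (chr10:83487450-83534140, minus strand, GRCm38), gave 2094, 1903, 1941 and 2114 depth-normalized reads in supplemented supernatant and 168, 145, 170.0 and 156 in complete fresh medium. The values of the 2 media did not overlap (log2 fold change 3.65 ± 0.0649 (SE), adjusted p = 1.8e-25). For Nupr1 the libraries read 1073, 1024, 1069 and 1033 depth-normalized reads in supplemented supernatant and 92.8, 80.4, 93.6 and 97.6 in complete fresh medium. All 4 supplemented libraries were again the highest of the series (log2 fold change 3.52 ± 0.0780 (SE), adjusted p = 1.7e-23), with 559.9 ± 34.0 (SD, n = 4) in methionine-free fresh medium and 534 ± 35.9 (SD, n = 4) in supernatant in between.

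Slc7a11, which imports cystine in exchange for glutamate, was low throughout, with 591, 698, 681 and 691 depth-normalized reads in supplemented supernatant and 103, 91.7, 87.3 and 67.9 in complete fresh medium. Its supplemented libraries exceeded all others (log2 fold change 2.93 ± 0.103 (SE), adjusted p = 5e-19). Asns, a standard ATF4 target that makes asparagine, rose from 7237, 6902, 7040.3 and 7046 in complete fresh medium to 17050.0, 16985, 17856 and 16911 in supplemented supernatant, a 2.44-fold difference (adjusted p = 2.7e-22). Its means without methionine, 8028 in methionine-free fresh medium and 9421 in supernatant, lay between these. Shmt2 and Mthfd2, the mitochondrial serine and folate enzymes, rose 2.13-fold (adjusted p = 9.7e-20) and 2.05-fold (adjusted p = 3.4e-20), and for each of them the supplemented supernatant libraries were the highest of the 16.

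Other genes of the response were higher in supplemented supernatant than in complete fresh medium but not the highest of the series. Ddit3, which encodes the stress transcription factor CHOP, measured 2917, 2995, 2825 and 2699 depth-normalized reads in supplemented supernatant and 829, 789, 825 and 742 in complete fresh medium. Its groups did not overlap (log2 fold change 1.84 ± 0.0475 (SE), adjusted p = 4.5e-22), and the media without methionine were higher still, at 3733 ± 94.0 (SD, n = 4) and 3313 ± 93.6 (SD, n = 4). The transcription factor Atf5 (log2 fold change 2.58) and Sesn2 (1.74), an inhibitor of mTORC1 signalling, had the same order. Atf4 itself, named here after its values were seen, rose 1.83-fold. The single member that fell was Ddit4, an mTORC1 inhibitor that is also induced by hypoxia and glucocorticoids, with 10890.1, 11717, 14515 and 12553 depth-normalized reads in supplemented supernatant and 22594, 21655, 23138 and 21183 in complete fresh medium; its values did not overlap (log2 fold change -0.84 ± 0.0535 (SE), adjusted p = 1.6e-13). Cbs, which precedes Cth in the route from homocysteine to cysteine, was not called and measured 17.5 ± 5.13 against 11.8 ± 3.19 depth-normalized reads (SD, n = 4).

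**Figure D2:**
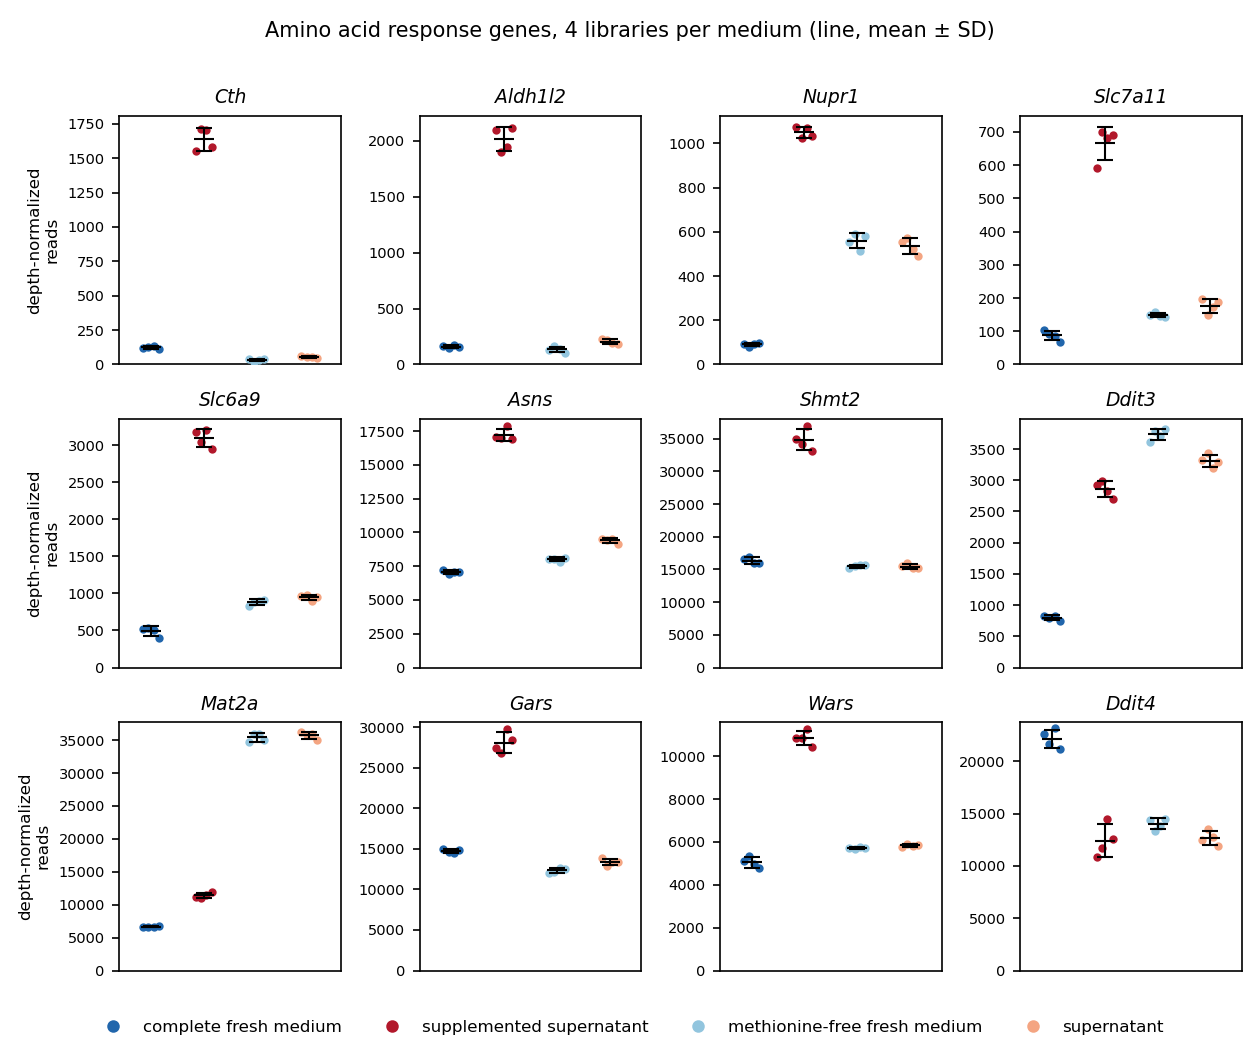
The vertical axis gives depth-normalized reads from 0, points are the 4 libraries of each medium, and the black lines are the mean and SD. Cth, Aldh1l2, Nupr1, Slc7a11, Slc6a9, Asns, Shmt2, Gars and Wars are highest in supplemented supernatant (dark red), Ddit3 and Mat2a are highest in the media without methionine (pale colours), and Ddit4 is highest in complete fresh medium (dark blue).

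Of 16 tested amino acid transporters, 10 rose and 3 fell (median log2 fold change 0.56), against 32.0% and 32.6% of all genes. The glycine transporter gene Slc6a9 measured 3177, 3047, 3209.7 and 2949.7 depth-normalized reads in supplemented supernatant and 523, 533, 513 and 398 in complete fresh medium, with no overlap (log2 fold change 2.66 ± 0.0658 (SE), adjusted p = 2.1e-22). The neutral amino acid transporter Slc1a4 rose 3.34-fold (adjusted p = 1.6e-20). Slc7a5 and Slc3a2, the 2 subunits of the large neutral amino acid transporter that carries methionine and leucine, are named after their values were seen. Per length they stood at 314 ± 42.5 and 264 ± 18.0 FPKM (SD, n = 4) in supplemented supernatant and at 124 ± 14.8 and 106 ± 4.03 FPKM (SD, n = 4) in complete fresh medium, and rose 2.59-fold and 2.53-fold by depth-normalized reads. Slc43a2, another transporter of methionine and other large neutral amino acids, moved the other way, with 2309.8, 2249, 2293 and 2268 depth-normalized reads in supplemented supernatant and 3451, 3529, 3665 and 3379 in complete fresh medium. It fell without overlap (log2 fold change -0.62 ± 0.0377 (SE), adjusted p = 6.4e-14), and the media without methionine were lower again at 1025 ± 27.0 (SD, n = 4) in methionine-free fresh medium and 1030.1 ± 42.7 (SD, n = 4) in supernatant. The lysosomal amino acid transporters Slc36a1 and Slc38a9 fell, with log2 fold changes of -0.34 and -0.24.

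In the methionine cycle, 10 of 12 tested genes rose and none fell by the test (median 0.30), against 32.0% and 32.6% of all genes. Ahcyl1 (-0.0083, adjusted p = 0.84) and Mat2b (-0.063, adjusted p = 0.13) were not called, though Mat2b was called lower (-0.086) without replicate 1 of complete fresh medium. Mat2a (chr6:72432799-72439558, minus strand, GRCm38) makes S-adenosylmethionine, and its transcript is known to be held low where that product is plentiful. It measured 11236, 11092, 11488 and 11936 depth-normalized reads in supplemented supernatant and 6599, 6652, 6578 and 6716 in complete fresh medium. All supplemented libraries lay above all complete fresh medium libraries (log2 fold change 0.78 ± 0.0328 (SE), adjusted p = 1.9e-17), and far below the media without methionine, which averaged 35416 ± 619.7 (SD, n = 4) in methionine-free fresh medium and 35760.3 ± 518 (SD, n = 4) in supernatant. Ahcy, which clears S-adenosylhomocysteine, rose 1.35-fold, and Mtrr, which keeps methionine synthase active, rose 1.90-fold (adjusted p = 6.2e-12 and 1e-14).

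Of 20 cytosolic aminoacyl-tRNA synthetase genes, 17 rose and 2 fell (median 0.66), against 32.0% and 32.6% of all genes. In 13 of the 20 the supplemented libraries lay above all 12 others, against 11.1% of all genes. Wars, for tryptophan, measured 10833, 10856, 11273 and 10432 depth-normalized reads in supplemented supernatant and 5111, 5357, 4964 and 4764 in complete fresh medium, and Gars, for glycine, 27456, 26811, 29772 and 28417 depth-normalized reads in supplemented supernatant and 14992, 14579.9, 14552 and 14814 in complete fresh medium. The groups did not overlap for either gene (adjusted p = 1.7e-19 and 1.3e-18). Eprs, for glutamate and proline, rose 1.97-fold, and the 2 that fell were Qars, for glutamine (-0.33), and Dars, for aspartate (-0.21).

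Serine, folate and nucleotide synthesis genes rose in 21 of 24 cases and fell in 1 (median 0.32). Of the 24, 16 were highest in all 4 supplemented libraries, against 11.1% of all genes. Psph, the last enzyme of serine synthesis, rose 1.75-fold (adjusted p = 3.3e-16). Paics, of purine synthesis, was the member that fell (-0.25, adjusted p = 1.1e-07). Of 29 ribosome biogenesis genes, 28 rose and none fell by the test (median 0.60). Ppan, a factor of large subunit assembly, had values of 3059, 3087, 3082 and 2909 depth-normalized reads in supplemented supernatant and 1547, 1590.3, 1465 and 1349 in complete fresh medium, which did not overlap (log2 fold change 1.03 ± 0.0463 (SE), adjusted p = 9.2e-17). Polr1b, a subunit of RNA polymerase I, rose 1.95-fold and Gnl3, a nucleolar GTPase, 1.92-fold. In 2 members of this list all 4 supplemented supernatant libraries were the highest of the 16, against 11.1% of all genes. Ppan was at 3027 in methionine-free fresh medium and 3366 in supernatant. Myc, whose product drives ribosome biogenesis, measured 12315, 11103, 10971 and 12126 depth-normalized reads in supplemented supernatant and 5860.0, 6507, 5816 and 6035 in complete fresh medium, without overlap (log2 fold change 0.94 ± 0.0409 (SE), adjusted p = 4.6e-17). Among polyamine genes 4 of 9 rose and 3 fell, against 32.0% and 32.6% of all genes. Srm, spermidine synthase, was up 1.92-fold and the antizyme Oaz2 down 1.38-fold.

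Genes of glucose use moved in the opposite direction. Of 22 tested glycolysis genes, 20 fell and 2 rose (median -0.70), and of 24 hypoxia response genes 21 fell and 1 rose (median -0.66). Over all genes tested, 32.6% fell and 32.0% rose. The glucose transporter gene Slc2a3 (GLUT3) measured 9764, 9452, 11032 and 10576 depth-normalized reads in supplemented supernatant and 29832, 28972, 29190.3 and 29122 in complete fresh medium. All 4 supplemented libraries were below all 4 of complete fresh medium, 2.87-fold on average (log2 fold change -1.52 ± 0.0390 (SE), adjusted p = 4.1e-22), and levels without methionine were lower, at 4149 ± 61.9 (SD, n = 4) and 4718 ± 30.6 (SD, n = 4). Slc16a3, the lactate exporter MCT4 (chr11:120948480-120960868, plus strand, GRCm38), gave 4697, 4499, 4930.0 and 4457 depth-normalized reads in supplemented supernatant and 12424, 12613, 12561 and 11732 in complete fresh medium. It fell 2.66-fold (adjusted p = 5.3e-22). The muscle-type phosphofructokinase Pfkm and hexokinase 2 (Hk2) fell 1.80-fold and 1.71-fold. The 2 members that rose were Eno3, an enolase (0.40), and Slc16a1, the lactate transporter MCT1 (0.24).

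Per length, Aldoa, for aldolase, was the most abundant transcript among the 22 tested glycolysis genes in both media. Pkm, also on the list, had no depth-normalized values and was not ranked. Aldoa stood at 2649 ± 443 FPKM (SD, n = 4) in supplemented supernatant and 3435 ± 607 FPKM (SD, n = 4) in complete fresh medium, and Ldha, for lactate dehydrogenase, at 1789.7 ± 285 and 2816 ± 338 FPKM (SD, n = 4). Both were named after their values were seen. Their log2 fold changes of depth-normalized reads were -0.39 and -0.61 (adjusted p = 4.2e-08 and 6.5e-13), and -0.071 and -0.37 after quantile normalization, where Aldoa was not called.

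The windows of 2 hypoxia response genes that fell are shown with the core letters to which HIF-1 binds, ACGTG or its reverse complement CACGT, in capitals. Both were picked from windows that hold these letters. Ak4 encodes a mitochondrial adenylate kinase (chr4:101419453-101419752, plus strand, GRCm38.p6) and Egln3 an oxygen-dependent prolyl hydroxylase that marks HIF for breakdown (chr12:54203825-54204124, minus strand).
Ak4: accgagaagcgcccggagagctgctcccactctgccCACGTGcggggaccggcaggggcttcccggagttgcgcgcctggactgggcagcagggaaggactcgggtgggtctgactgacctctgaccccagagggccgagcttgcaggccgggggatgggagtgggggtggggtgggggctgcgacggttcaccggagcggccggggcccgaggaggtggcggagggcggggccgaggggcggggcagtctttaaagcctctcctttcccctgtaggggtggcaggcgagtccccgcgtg
Egln3: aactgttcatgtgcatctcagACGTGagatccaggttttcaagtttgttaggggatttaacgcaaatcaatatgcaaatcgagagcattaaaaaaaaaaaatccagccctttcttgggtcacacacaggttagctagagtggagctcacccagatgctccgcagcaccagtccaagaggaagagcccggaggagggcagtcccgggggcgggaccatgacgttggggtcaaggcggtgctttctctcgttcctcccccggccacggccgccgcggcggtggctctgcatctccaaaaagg
The 6 capitals of Ak4 hold the core on both strands. The core is short and stood in 19.6% of all 32851 windows. By windows, 17 of 30 of the hypoxia list and 17 of 34 of the glycolysis list held it. By genes, 20 of the hypoxia list had a window and 16 held it. Of 23 glycolysis genes, 22 had a window and 14 held it. A gene can have several windows, so the gene counts cannot be set beside the share of all windows. Ak4 itself measured 1185, 1186, 1443 and 1439 depth-normalized reads in supplemented supernatant and 3627, 3694, 3451 and 3531 in complete fresh medium, and Egln3 6029, 6254, 8512 and 6965 depth-normalized reads in supplemented supernatant and 17595, 15751, 16391 and 15710.4 in complete fresh medium. The values did not overlap for either gene, with falls of 2.73-fold and 2.38-fold (adjusted p = 2.2e-18 and 1.5e-15). Adm, which encodes adrenomedullin, was near the filter at 6.81 ± 4.71 and 34.5 ± 3.38 depth-normalized reads (SD, n = 4). It had the lowest log2 fold change of the list (-2.41, adjusted p = 2.4e-06; -1.44 with 10 added before the logarithm in place of 1). Car12, a carbonic anhydrase, was the member that rose (0.94). Hif1a, the oxygen-regulated subunit's gene, measured 19534, 18913, 19499 and 20024 depth-normalized reads in supplemented supernatant and 18315, 18135, 18902 and 20131 in complete fresh medium, and its values overlapped (log2 fold change 0.048 ± 0.0351 (SE), adjusted p = 0.24). Without replicate 3 of complete fresh medium Hif1a was called, at 0.079. Adm and Car12 had windows without the HIF-1 core. Hif1a and the glycolysis gene Slc16a1, which rose (0.24), had windows with it. Of 8 genes of glucose sensing, 4 fell and 1 rose, against 32.6% and 32.0% of all genes. Txnip, the standard target of the glucose sensor MondoA, measured 13557, 12839.6, 12262 and 13022 depth-normalized reads in supplemented supernatant and 13070.1, 12748, 11686 and 12854 in complete fresh medium, with overlapping values (log2 fold change 0.038 ± 0.0376 (SE), adjusted p = 0.39).

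Sterol synthesis genes fell nearly without exception. Of 24 tested genes of cholesterol synthesis and uptake, 23 fell and none rose (median -0.56), against 32.6% and 32.0% of all genes. Hsd17b7 was not called (0.035, adjusted p = 0.59). Hmgcs1, which makes the precursor of mevalonate, had 8853, 10164, 8403 and 8318 depth-normalized reads in supplemented supernatant and 18088, 17016, 18211 and 20081 in complete fresh medium. The lowest complete fresh medium library was above the highest supplemented library (log2 fold change -1.04 ± 0.0497 (SE), adjusted p = 3.6e-16). Acat2, an acetyl-CoA acetyltransferase, and Idi1, isopentenyl-diphosphate isomerase, fell 1.97-fold and 1.96-fold (adjusted p = 1.1e-16 and 5.2e-18).

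Among 19 genes of fatty acid synthesis 13 fell and 3 rose (median -0.28). Scd1, which desaturates stearoyl-CoA, measured 5909, 7022, 5969 and 6116 depth-normalized reads in supplemented supernatant and 13784, 13639, 14114 and 14472 in complete fresh medium, without overlap (log2 fold change -1.17 ± 0.0422 (SE), adjusted p = 8.4e-19). Acss2, which activates acetate, and the desaturase Fads2 fell 1.99-fold and 1.69-fold, and Mid1ip1, an activator of acetyl-CoA carboxylase, rose 1.56-fold. Of 8 genes of sterol efflux, 7 fell, among them the exporter Abca1 (-0.68), and the receptor gene Nr1h3, at 39.4 against 24.9 depth-normalized reads, was called higher (0.62, adjusted p = 0.023). The call on Nr1h3 was lost without replicate 1 or 3 of complete fresh medium or without replicate 0, 1 or 3 of supplemented supernatant, with log2 fold changes of 0.52 to 0.57, and in FPKM. Fatty acid oxidation genes fell in 12 of 22 and rose in 5, against 32.6% and 32.0% of all genes. The highest were the thioesterase Acot2 (1.49) and Angptl4, a secreted lipase inhibitor (0.67).

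**Figure D3:**
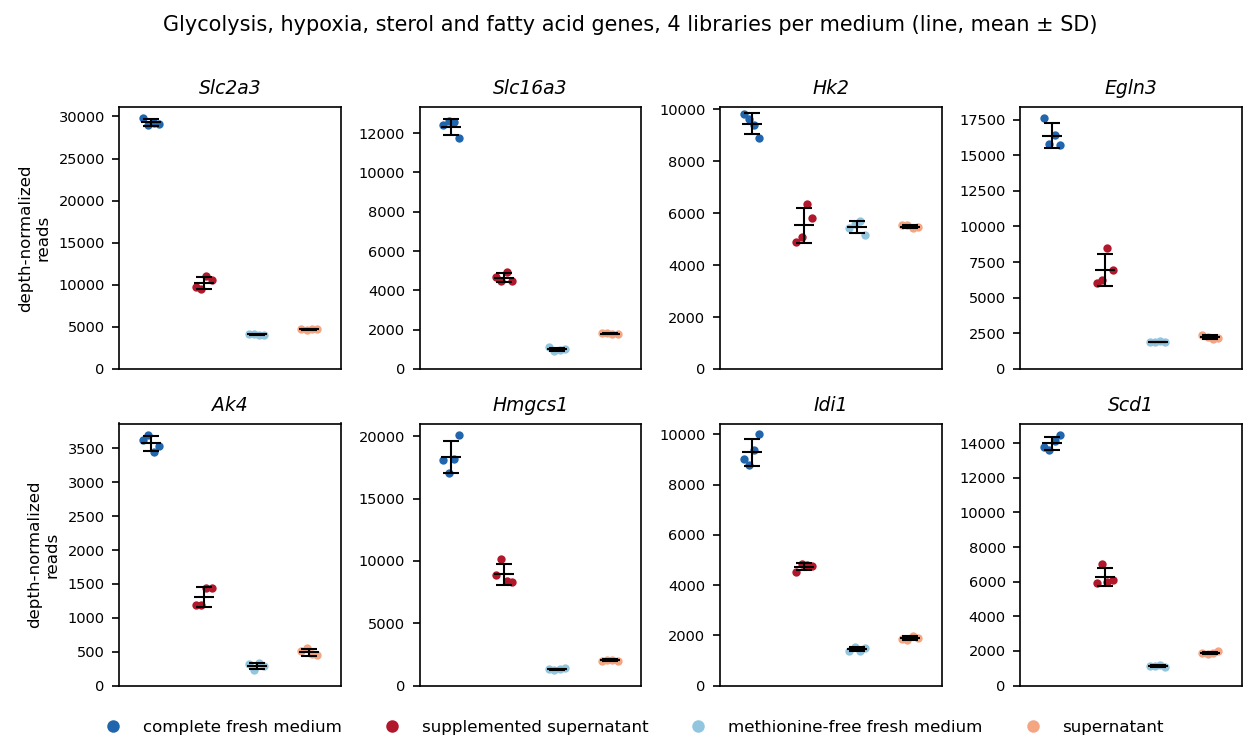
Depth-normalized reads (vertical axis, from 0) of 8 genes are plotted for the 4 libraries of each medium, with black lines for the mean and SD. For all 8 the dark blue points of complete fresh medium are the highest, and the dark red points of supplemented supernatant lie above both media without methionine for each gene except Hk2, where these 3 media lie close together.

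Mitochondrial genes moved less. In the tricarboxylic acid cycle 14 of 22 fell and 5 rose (median -0.13). Pcx, pyruvate carboxylase, rose 1.45-fold, and Idh1, the cytosolic isocitrate dehydrogenase, fell 1.83-fold. Of 46 nuclear genes of oxidative phosphorylation, 22 fell and 6 rose (median -0.075), against 32.6% and 32.0% of all genes. The lowest was Cox7b (-0.58) and the highest Uqcrq (0.44), subunits of complexes IV and III. The highest fold change of all named genes belonged to Cox6a2, the muscle isoform of a complex IV subunit (chr7:128205435-128206387, minus strand, GRCm38). Its libraries gave 442, 418, 436 and 355 depth-normalized reads in supplemented supernatant and 7.83, 8.47, 11.7 and 2.61 in complete fresh medium, so it was near 0 in complete fresh medium and rose in all 4 supplemented libraries (log2 fold change 5.71 ± 0.243 (SE), adjusted p = 2.7e-17). Methionine-free fresh medium and supernatant stood between, at 128 ± 25.9 and 128 ± 23.5 (SD, n = 4).

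Cell cycle genes were lower by small amounts. Of 25 mitosis genes 24 fell and none rose (median -0.33), and of 28 genes of DNA replication 21 fell and 2 rose (median -0.15). The proliferation marker Mki67 measured 46209, 45389, 43572 and 49892 depth-normalized reads in supplemented supernatant and 61684, 63450.5, 65405 and 67328 in complete fresh medium, without overlap (log2 fold change -0.48 ± 0.0395 (SE), adjusted p = 3.4e-11). Rrm1, of ribonucleotide reductase, fell 1.43-fold, and Ccne1, cyclin E1, and Mcm2, of the replicative helicase, rose by log2 0.22 and 0.21. Among the G1 genes Cdk6, a kinase partner of D cyclins, rose 2.38-fold and Ccnd2, cyclin D2, 1.43-fold, and the inhibitors Cdkn1b (p27) and Cdkn1a (p21) fell 1.61-fold and 1.46-fold (adjusted p = 4.7e-14 and 4.3e-11). p53 targets fell in 9 of 22 and rose in 5, against 32.6% and 32.0% of all genes. Fas, a death receptor, fell 1.67-fold, and Aen, a nuclease, rose 1.64-fold.

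T cell cytokines rose in 14 of 18 tested genes and fell in 2 (median 0.76), against 32.0% and 32.6% of all genes. Lta encodes lymphotoxin alpha (chr17:35203165-35205351, minus strand, GRCm38). Its libraries read 10526, 10835, 10407 and 10704 depth-normalized reads in supplemented supernatant and 1239, 1243, 1204 and 1119 in complete fresh medium. Supplemented supernatant stood 8.84-fold above complete fresh medium with no overlap (log2 fold change 3.14 ± 0.0384 (SE), adjusted p = 2.9e-29), and the media without methionine were higher again, at 15700.2 ± 484 (SD, n = 4) and 24039 ± 671 (SD, n = 4). Tnf, the neighbouring cytokine gene for tumour necrosis factor, measured 2184, 1948, 2076 and 2216 depth-normalized reads in supplemented supernatant and 594, 609.6, 502 and 577 in complete fresh medium, without overlap (log2 fold change 1.88 ± 0.0579 (SE), adjusted p = 2.6e-20).

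Il24, a cytokine of the IL-10 family, gave 1914, 1883, 1879.8 and 1899.5 depth-normalized reads in supplemented supernatant and 424, 464, 436 and 453 in complete fresh medium. All 4 supplemented libraries were above the other 12 (log2 fold change 2.09 ± 0.0502 (SE), adjusted p = 1.1e-22). Ifng, for interferon gamma, was low in both media at 122, 128, 139.9 and 143 in supplemented supernatant and 81.7, 60.7, 76.5 and 68.8 in complete fresh medium, and rose 1.85-fold without overlap (adjusted p = 1e-06). The cytokines called lower were Tnfsf14 (LIGHT), with -0.77, and Il5, which was near the filter at 8.57 ± 1.01 and 15.2 ± 1.30 depth-normalized reads (SD, n = 4). The call on Il5 held on leaving out replicate 0 of supplemented supernatant and was lost on leaving out any other of the 8 libraries, with log2 fold changes of -0.69 to -0.80. Per length, Ltb and Lta were the most abundant cytokine transcripts in supplemented supernatant, at 304 ± 82.1 and 229 ± 24.6 FPKM (SD, n = 4), against 231 ± 48.3 and 26.6 ± 3.85 FPKM (SD, n = 4) in complete fresh medium. Of 5 tested chemokine genes none was called higher, against 32.0% of all genes, and 2 were called lower, against 32.6%. These were Ccl5 (-1.13, adjusted p = 1.2e-12) and Xcl1 (-0.72, adjusted p = 0.0048), each with its 4 supplemented libraries below the other 12. The highest log2 fold change of the chemokine list was 0.72 and was not called. With edgeR, quantile normalization or the 16-library fit, 1 chemokine gene was called higher. Only Ccl5 had a mean of at least 50 depth-normalized reads.

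In the IL-2 and STAT5 list 13 of 24 genes rose and 8 fell (median 0.43), against 32.0% and 32.6% of all genes. Il2ra, which encodes CD25 of the high-affinity IL-2 receptor, measured 80637, 80661, 80188 and 82765 depth-normalized reads in supplemented supernatant and 53932, 53328, 52719.5 and 53684 in complete fresh medium, and was highest in supplemented supernatant of all media (log2 fold change 0.60 ± 0.0329 (SE), adjusted p = 6.7e-15). Cish, a feedback inhibitor induced by STAT5, gave 9532, 9239, 8521 and 8893 depth-normalized reads in supplemented supernatant and 3030.1, 3339, 3253 and 3113 in complete fresh medium, without overlap (log2 fold change 1.51 ± 0.0391 (SE), adjusted p = 5.3e-22). Its levels without methionine were 19312 in methionine-free fresh medium and 20943 in supernatant, above both. Bcl2, which protects from apoptosis, measured 30706, 30712, 28859 and 31843 depth-normalized reads in supplemented supernatant and 17406, 18263, 17248 and 18423 in complete fresh medium, the highest 4 values in the series (log2 fold change 0.78 ± 0.0353 (SE), adjusted p = 1.2e-16). Osm rose 2.54-fold and the feedback inhibitor Socs1 2.23-fold.

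The members that fell included the signalling genes themselves. Stat5a measured 2949, 2960.5, 2914 and 2888 depth-normalized reads in supplemented supernatant and 3431, 3333, 3392 and 3185 in complete fresh medium, and Stat5b 6149, 5955, 6246 and 5963 depth-normalized reads in supplemented supernatant and 7967, 7639.9, 7675 and 7715 in complete fresh medium. Neither overlapped between media, and the falls were small (Stat5a -0.19, adjusted p = 7.3e-05; Stat5b -0.35, adjusted p = 4.8e-10). The kinase gene Jak3 fell 1.35-fold. In the BCL2 family 6 of 16 rose, led by Bcl2l1 (BCL-xL, 1.03) and the pro-apoptotic Bid (0.93), and 4 fell, among them Bmf and Bcl2l11 (BIM), against 32.0% and 32.6% of all genes. Dot1l, the methyltransferase of histone H3 lysine 79, rose 1.11-fold from 3941, 4284, 3791 and 3542 in complete fresh medium to 4439.8, 4268, 4144 and 4409 in supplemented supernatant, with values that overlapped (adjusted p = 0.0039).

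Of 15 killing genes, 7 were higher and 5 lower (median 0.17), against 32.0% and 32.6% of all genes. The median was 0.035 without replicate 1 of complete fresh medium and 0.057 over members with a mean of at least 50. Gzmb, for granzyme B, measured 167599, 162555, 177904 and 177560.0 depth-normalized reads in supplemented supernatant and 138301, 133051, 131735 and 130369 in complete fresh medium, without overlap (log2 fold change 0.36 ± 0.0398 (SE), adjusted p = 9.3e-09; 0.57 after quantile normalization). Per length Gzmb stood at 3408 ± 76.6 FPKM (SD, n = 4) in supplemented supernatant and 2671 ± 177 FPKM (SD, n = 4) in complete fresh medium, above the other killing genes of the list. Unc13d, needed for granule release, and Fasl, Fas ligand, rose by log2 0.35 and 0.32, and Gzmk and Gzma fell (log2 fold changes -0.57 and -0.29).

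**Figure D4:**
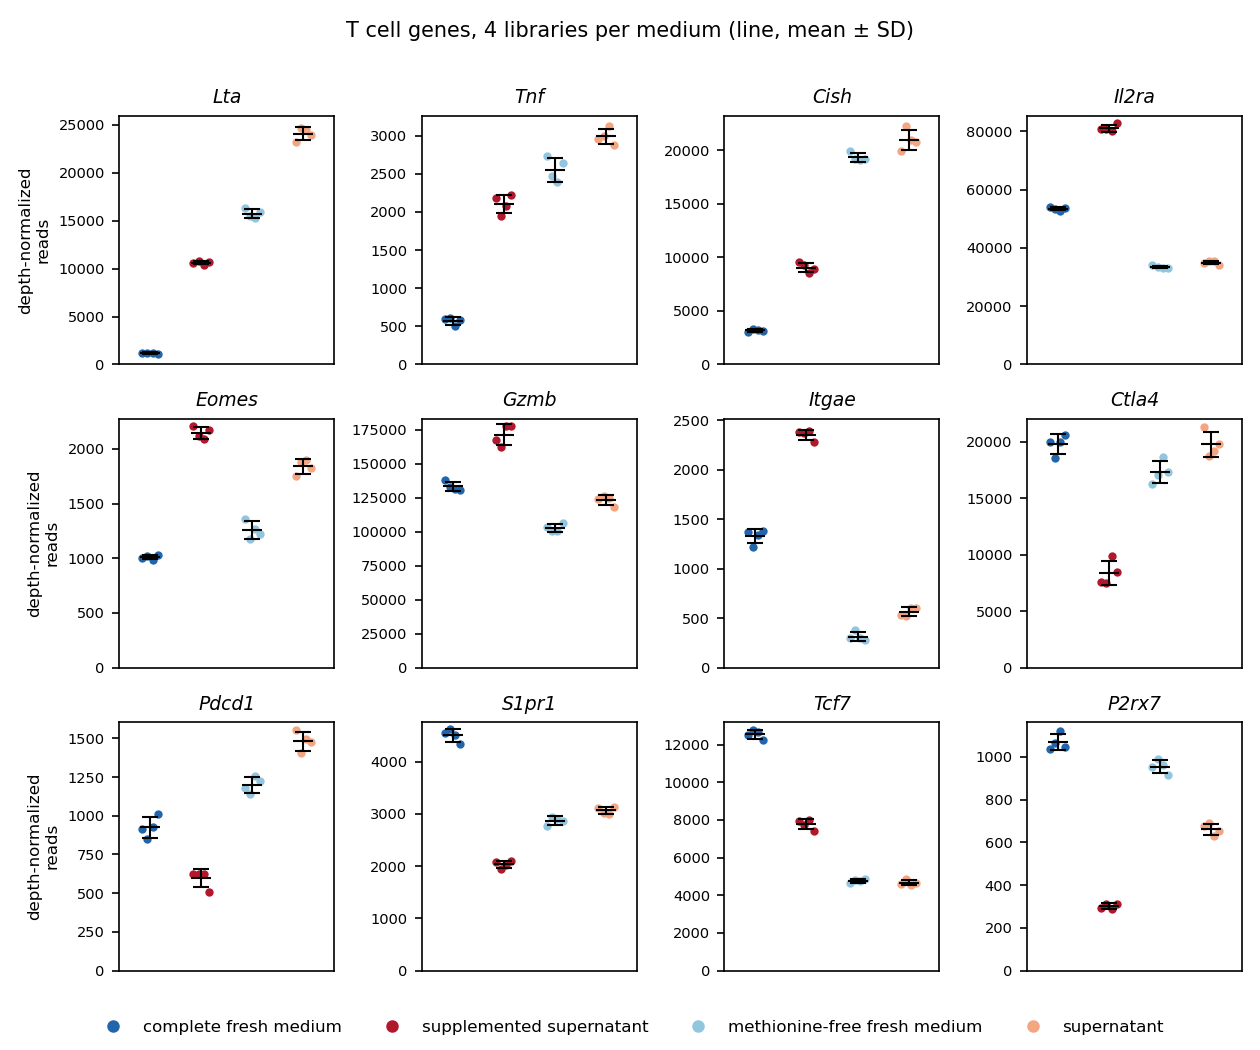
The vertical axes give depth-normalized reads from 0 for the 4 libraries of each medium, with the mean and SD as black lines. Il2ra, Eomes, Gzmb and Itgae are highest in supplemented supernatant, Ctla4, Pdcd1, S1pr1 and P2rx7 are lowest there, and Lta, Tnf and Cish lie between complete fresh medium and the media without methionine.

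Inhibitory receptors fell in 9 of 17 and rose in 5 (median -0.20), against 32.6% and 32.0% of all genes. Ctla4, which competes with CD28 for its ligands (chr1:60887000-60915832, plus strand, GRCm38), measured 7598, 7515, 9837 and 8485 depth-normalized reads in supplemented supernatant and 19984, 18559, 19999 and 20629 in complete fresh medium. All 4 supplemented libraries were below the other 12 of the series (log2 fold change -1.25 ± 0.0548 (SE), adjusted p = 5.3e-17). Pdcd1, for PD-1, measured 623, 625, 624 and 507 depth-normalized reads in supplemented supernatant and 916, 847, 927 and 1013 in complete fresh medium, and was likewise below the other 12 (log2 fold change -0.64 ± 0.0678 (SE), adjusted p = 4.6e-09). The ligand genes Cd274 (PD-L1) and Pdcd1lg2 (PD-L2) rose by log2 0.27 and 0.48. Of 16 costimulatory receptors 7 fell, with Cd28 at -0.67, and 2 rose, with Cd2 at 0.43, against 32.6% and 32.0% of all genes.

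Homing and chemokine receptor genes fell in 17 of 23 and rose in 5 (median -0.38), against 32.6% and 32.0% of all genes. S1pr1, the receptor for exit from lymphoid tissue, had 2069, 1944, 2018 and 2103 depth-normalized reads in supplemented supernatant and 4550.2, 4616, 4512 and 4333 in complete fresh medium, the lowest 4 values of the series (log2 fold change -1.15 ± 0.0381 (SE), adjusted p = 1.4e-19). The chemokine receptor Cxcr4 fell 2.40-fold. Itgae, the integrin CD103 that holds T cells in epithelia, rose from 1370.2, 1221, 1344 and 1381 in complete fresh medium to 2378, 2375, 2389.7 and 2279.6 in supplemented supernatant, the highest of the series (adjusted p = 5.5e-15). The early activation marker Cd69, which opposes S1pr1 at the surface, rose 2.01-fold and Ccr8 1.89-fold.

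FOXO targets and quiescence genes fell in 20 of 22 and none rose (median -0.43), against 32.6% and 32.0% of all genes. In 10 of the 22 all 4 supplemented libraries were below the other 12, against 8.58% of all genes. Ccng2, an inhibitory cyclin, measured 2799, 2719, 3418 and 3126 depth-normalized reads in supplemented supernatant and 7778, 7448, 7835 and 8399 in complete fresh medium, without overlap (log2 fold change -1.39 ± 0.0515 (SE), adjusted p = 1.5e-18). Bcl6, a repressor linked to memory precursors, fell 3.24-fold (adjusted p = 1e-13) and the antiproliferative Btg2 2.05-fold (adjusted p = 2e-17).

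T cell transcription factors rose in 16 of 39 and fell in 18, where all genes had 32.0% and 32.6%. Tcf7, for TCF-1, a factor of naive and stem-like T cells, measured 7958, 7714, 7981 and 7429 depth-normalized reads in supplemented supernatant and 12508, 12785, 12649 and 12222 in complete fresh medium. It fell without overlap (log2 fold change -0.69 ± 0.0333 (SE), adjusted p = 4.2e-16). Eomes, a factor of effector and memory CD8 cells, measured 2212, 2113, 2092 and 2176 depth-normalized reads in supplemented supernatant and 999, 1019, 988 and 1029.5 in complete fresh medium, highest in supplemented supernatant (log2 fold change 1.09 ± 0.0430 (SE), adjusted p = 5.2e-18). The immediate early factor Egr1 rose 3.25-fold from a low level and Rora fell 2.78-fold. Batf3, a partner of JUN proteins named after its values were seen, rose 2.10-fold. Foxp3, the regulatory T cell factor, rose from 51.5, 53.6, 47.7 and 50.5 to 145, 142, 189.8 and 147 (adjusted p = 4.4e-11).

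Receptor and signalling genes of the T cell receptor rose in 6 of 18 and fell in 7, near the shares of all genes (32.0% higher and 32.6% lower). Cd3e, a CD3 chain, fell 1.38-fold. Cyclic AMP response genes fell in 13 of 18 and rose in 3 (median -0.41). Of the 18, 11 were lowest in all 4 supplemented libraries, against 8.58% of all genes. Adora2a, an adenosine receptor, measured 773, 731, 784 and 742 depth-normalized reads in supplemented supernatant and 1352, 1441, 1412 and 1405 in complete fresh medium, without overlap (log2 fold change -0.89 ± 0.0486 (SE), adjusted p = 6.9e-15). The prostaglandin receptor genes Ptger2 and Ptger4 were among the 3 that rose (0.42 and 0.45).

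TGF-beta response genes rose in 9 of 18 and fell in 6, against 32.0% and 32.6% of all genes. Pmepa1, a feedback inhibitor of the pathway, rose from 299.8, 329, 288 and 321 in complete fresh medium to 635, 619, 716 and 708 in supplemented supernatant, and its groups did not overlap (adjusted p = 1.5e-13). The signalling factor Smad3 and the receptor Tgfbr2 fell 1.72-fold and 1.51-fold.

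Interferon-stimulated genes fell in 15 of 28 and rose in 4 (median -0.29). Dhx58, a cytosolic RNA sensor, fell 2.67-fold (adjusted p = 8.6e-17), and Rsad2, for the antiviral enzyme viperin, was low at 29.8 ± 2.25 against 78.0 ± 8.89 depth-normalized reads (SD, n = 4). MHC class I and interferon gamma genes rose in 12 of 28 and fell in 7, with the receptor chain Ifngr1 down 1.80-fold. NF-kB targets and immediate early genes fell in 12 of 24 and rose in 7. Over all genes 32.6% fell and 32.0% rose. Tnfaip3 (A20), an inhibitor of NF-kB, fell 1.83-fold, and Fosl1 (FRA-1) rose 2.16-fold from a low level.

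NRF2 and glutathione genes were divided, 13 of 30 higher and 12 lower against 32.0% and 32.6% of all genes. Of the 30, 11 were highest in all 4 supplemented libraries, against 11.1% of all genes. Nqo1, a quinone reductase, measured 241, 228, 235 and 190.5 depth-normalized reads in supplemented supernatant and 129, 83.3, 118 and 118 in complete fresh medium, and Sqstm1, the autophagy receptor p62, 14929.7, 14048, 15101 and 14137 depth-normalized reads in supplemented supernatant and 7248, 6739.6, 7204 and 6900.1 in complete fresh medium. Both were highest in supplemented supernatant (adjusted p = 4.9e-08 and 1.6e-19). Gstm1, a glutathione transferase, fell 2.21-fold. Of 16 genes of iron and zinc handling 9 rose, among them Hmox1, heme oxygenase 1 (0.81), and the zinc exporter Slc30a1 (1.03), and 6 fell, among them Mt1, a metallothionein (-0.56).

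Genes of the unfolded protein response rose in 10 of 21 and fell in 6. Herpud1 and Sel1l, of the degradation machinery of the endoplasmic reticulum, rose 2.00-fold and 1.76-fold, and the chaperone genes Hsp90b1 and Pdia3 fell (log2 fold changes -0.25 and -0.34). Heat shock genes rose in 3 of 12 and fell in 5, and lysosome and autophagy genes rose in 11 of 31 and fell in 13, beside 32.0% higher and 32.6% lower over all genes. Aryl hydrocarbon receptor genes numbered 5, of which 3 rose, with the repressor Ahrr at 1.28, and 2 fell, with Tiparp at -1.09. Of 13 retinoic acid, vitamin D and glucocorticoid targets, 3 rose and 5 fell. The retinol-handling enzyme Dhrs3 had the largest fall of that list, at 1.92, 0, 5.87 and 2.60 in supplemented supernatant and 25.7, 28.2, 19.8 and 23.5 in complete fresh medium (adjusted p = 2.2e-06). Its log2 fold change was -3.11, and -1.46 with 10 added before the logarithm.

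Among the 12 highest fold changes, Cth, Aldh1l2, Nupr1, Slc7a11, Slc6a9, Atf5, Lta and Cox6a2 are described above. The others were Angptl6, Avil, P2rx3 and Ccdc164. Angptl6, an angiopoietin-like secreted protein, measured 1928, 1897, 1855 and 1655 depth-normalized reads in supplemented supernatant and 161, 147, 148 and 156 in complete fresh medium. P2rx3, an ATP-gated cation channel best known in sensory neurons, measured 387, 356, 429 and 380.1 depth-normalized reads in supplemented supernatant and 55.9, 53.6, 39.6 and 49.6 in complete fresh medium. Both were highest in supplemented supernatant with no overlap (adjusted p = 2.5e-25 and 5.4e-18). Avil, for the actin-binding protein advillin, rose 8.82-fold and Ccdc164 5.90-fold.

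The 12 lowest were led by Itga7, a laminin-binding integrin chain (chr10:128933818-128958282, plus strand, GRCm38), with 137, 82.3, 93.9 and 90.0 depth-normalized reads in supplemented supernatant and 648, 628, 709 and 700.3 in complete fresh medium. Its libraries did not overlap (log2 fold change -2.75 ± 0.111 (SE), adjusted p = 8.1e-18). P2rx7, the ATP-gated channel that can kill T cells on exposure to ATP, measured 291, 313, 287 and 313 depth-normalized reads in supplemented supernatant and 1038, 1064, 1122 and 1049 in complete fresh medium, and its supplemented libraries were the lowest of the 16 (log2 fold change -1.83 ± 0.0605 (SE), adjusted p = 1.4e-19). The cytochrome P450 gene Cyp2s1 fell 4.06-fold, the copper transporter Atp7b 3.56-fold, the glycosyltransferase Mgat3 3.79-fold and Selenbp1, a methanethiol oxidase, 3.38-fold. Gucy2e, Smtnl2, Tspan2, Tlr12 and Fam71f2 were also among them, with log2 fold changes from -1.99 (Gucy2e) to -1.78 (Fam71f2).

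Markers of other cell types were followed by count and by summed level. Of the melanocyte markers, Pmel averaged 27.9 depth-normalized reads in supplemented supernatant and 29.1 in complete fresh medium, and Tyr 52.8 and 62.2, and neither was called. From FPKM, Pmel was called lower (-0.53, adjusted p = 0.027; 0.0028 with the replicate block). Dct averaged 0.955 and 0, and Tyrp1 and Mlana were lower than 0.955 in each medium. The summed level of 11 melanocyte markers ran from 463 to 514 in supplemented supernatant and from 897 to 975 in complete fresh medium, and Gpnmb (-1.35) and Kit (-1.01), which T cells can also express, fell while Mitf (0.81) rose. All 4 tested myeloid markers fell, Cd68, Itgax, Itgam and Fcgr3, with sums of 272 to 334 against 557 to 598 over 9 markers, and Lyz2, Csf1r and Cd14 averaged under 10 depth-normalized reads in each medium. Of 4 tested natural killer markers 3 rose, Klrb1c, Klra7 and Klri2, with sums of 1625 to 1684 against 1071 to 1227 over 6 markers, and Ncr1 averaged 11.2 against 5.51. Klra8, of the same list, was at 0 in all 8 libraries. CD4 T cell markers summed to 3497 to 3783 against 2198 to 2334, mainly Zbtb7b, which rose, and Cd4, at 137 against 182, fell. B cell markers summed to 472 to 506 against 598 to 687, with Ms4a1 under 10 in each medium. Over all genes tested, 32.0% rose and 32.6% fell. The part of cells of these other types in the results above was not tested.

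The supernatant effect was then set against the one measured without methionine, supernatant against methionine-free fresh medium, which uses the other 8 libraries. In a fit of all 16 libraries over 12469 genes, supernatant without methionine differed from methionine-free fresh medium at 3344 genes (26.8%), of which 48 (0.385%) changed at least 2-fold, and with methionine in both media the same fit called 8106 (65.0%). The median absolute log2 fold change was 0.23 with methionine and 0.094 without. Of the genes called, 2499 were called in both, which is 30.8% of those called with methionine and 74.7% of those called without. In 801 of these both effects were upward, in 837 both were downward and in 861 they were opposite. Across the 12469 genes, which are not independent replicates, the 2 effects had Pearson's r = 0.18 and Spearman's rho = 0.16. The difference between the 2 effects (interaction) was called at 6557 genes (52.6%). From FPKM it was called at 750 genes, and at 3942 with a block for the replicate number.

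Glycolysis, hypoxia and sterol genes had opposite effects. Without methionine, 18 of 22 glycolysis genes, 16 of 24 hypoxia genes and 17 of 24 sterol genes were called higher in supernatant, against 14.0% of all genes, and none lower. The interaction was called negative at 19, 21 and 24 of them, against 25.0% of all genes. Slc16a3 was at 1818, 1840.0, 1772 and 1774 in supernatant and 1109, 907, 960.0 and 1024 in methionine-free fresh medium, a rise (0.85) where it fell with methionine, and the effects differed by -2.26 ± 0.0617 (SE, adjusted p = 3.2e-24). Ak4 gave 505, 559, 459 and 446 and 314, 227, 330.3 and 287, with an interaction of -2.22 ± 0.117 (SE, adjusted p = 6.9e-17), and for Hmgcs1 the interaction was -1.68 ± 0.0666 (SE, adjusted p = 4.8e-20). In all 3 genes every supernatant library lay above every methionine-free fresh medium library. Both media without methionine averaged below both media with it for these 3 genes. Ctla4 (0.19 without methionine, interaction -1.44, adjusted p = 8.4e-17) and Pdcd1 (0.30, interaction -0.94, adjusted p = 3.6e-11) were likewise higher in supernatant than in its methionine-free control.

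The amino acid response list was less affected without methionine, with a median of 0.10 and 14 of 31 genes called higher and 4 lower, against 14.0% and 12.9% of all genes. The interaction was called positive at 29 of the 31, against 27.6% of all genes. The 4 largest positive interactions of the genes the rule allowed were those of Cox6a2 (5.70 ± 0.320, SE, adjusted p = 3.7e-16), Nupr1 (3.58 ± 0.0991, SE, adjusted p = 3.2e-24), Angptl6 (3.46 ± 0.0756, SE, adjusted p = 5.3e-27) and Aldh1l2 (3.04 ± 0.134, SE, adjusted p = 7.7e-19). For Cox6a2, Nupr1 and Angptl6 the effect without methionine was 0.016, -0.068 and 0.11. Itga7 was among the 4 lowest, as were Slc16a3 and Ak4, with an interaction of -2.74 ± 0.237 (SE, adjusted p = 1.5e-11) and -0.015 without methionine.

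Mat2a and Slc43a2 differed by the methionine setting. Supernatant and methionine-free fresh medium overlapped for Mat2a (0.014, adjusted p = 0.75) and for Slc43a2 (0.006, adjusted p = 0.93). The interaction was 0.77 ± 0.0379 (SE, adjusted p = 1.3e-17) for Mat2a and -0.63 ± 0.0549 (SE, adjusted p = 2.1e-11) for Slc43a2, where it was not called from FPKM (-0.65, adjusted p = 0.069). Against the shared complete fresh medium libraries, Mat2a had log2 fold changes of 2.42 in methionine-free fresh medium and 0.78 in supplemented supernatant, and Cth of -1.99 and 3.70.

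**Figure D5:**
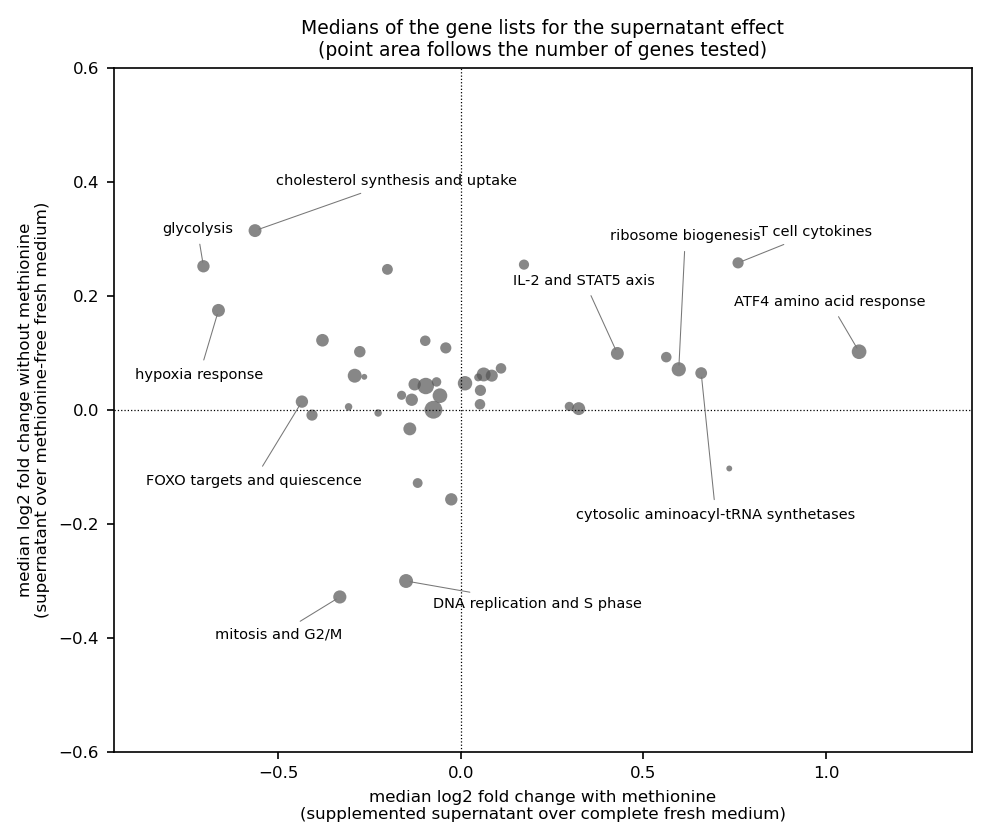
Each point is 1 gene list, with its median log2 fold change of supplemented supernatant over complete fresh medium on the horizontal axis and of supernatant over methionine-free fresh medium on the vertical axis. The point area follows the number of genes tested. Glycolysis, hypoxia and sterol lists lie at the upper left, below 0 with methionine and above 0 without, and the 2 cell cycle lists lie below 0 on both axes.

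Cell cycle lists were lower in supernatant in both settings. Without methionine all 25 mitosis genes and all 28 replication genes were called lower, against 12.9% of all genes (medians -0.33 and -0.30). Mki67 was at 49029.7 ± 1447 in supernatant and 61683 ± 2857 in methionine-free fresh medium (SD, n = 4), a log2 fold change of -0.33 beside -0.48 with methionine. The interaction was called positive at 18 and negative at 2 of the 28 replication genes (median 0.18), and positive at 10 and negative at 4 of the 25 mitosis genes, against 27.6% and 25.0% of all genes. Killing genes were called higher without methionine in 12 of 15 (14.0% of all genes) and lower in none.

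For 867 genes supernatant had effects of the same direction in both settings and the interaction was not called, 370 of them higher and 497 lower. The named genes among them include Ifng (0.89 with and 0.76 without methionine, interaction 0.13 ± 0.117, SE, adjusted p = 0.37), Itgae (0.83 and 0.86, interaction -0.037 ± 0.0958, SE, adjusted p = 0.77) and Gzmb (0.36 and 0.26, interaction 0.10 ± 0.0474, SE, adjusted p = 0.079). Klrb1c, for the receptor NK1.1, had 1.32 and 1.17 (interaction 0.15 ± 0.236, SE, adjusted p = 0.63), and Pmepa1 1.11 and 0.95 (interaction 0.16 ± 0.0922, SE, adjusted p = 0.14). Itgae was nonetheless 566 in supernatant against 2356 in supplemented supernatant, and Ifng 1548 against 133, so the levels differed between the settings. For Gzmb the interaction was called with edgeR (0.11), after quantile normalization (0.56) and total-read scaling (0.13), and without replicate 0 of complete fresh medium or replicate 1 of supplemented supernatant (0.12 each), and for Pmepa1 without replicate 3 of supernatant (0.22). An interaction that was not called does not show that the effects were equal.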

How the data were processed

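RNA was sequenced from 16 libraries in 4 media, 4 each. Cufflinks, Cuffdiff 2.2.1, Bowtie2 2.2.1, TopHat2 2.0.13 and FastQC 0.11.3 are named, per the submitters' processing notes, and GRCm38 and mm10 as builds. The counting tool, annotation and strand are not given in the sources used here. The authors deposited a signal per gene and library, named a depth-normalized count, for 17159 genes. Every value is a whole number of reads (to within 0.001 of a read in 100% of values) divided by 1 factor per library, and gave 25799636 to 42308209 reads per library over the 8 libraries. The authors also deposited FPKM per library for 23107 genes.

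Depth-normalized values were analysed as log2(value + 1), which understates folds of genes near 0, with limma 3.58.1 in R 4.3.3 (mean-variance trend, two-sided, Benjamini-Hochberg over all genes tested, called below 0.05, no minimum fold). The comparison of supplemented supernatant with complete fresh medium was fitted on its 8 libraries. The interaction, and supernatant against methionine-free fresh medium, were fitted on all 16, over 12469 genes with a mean of at least 10. Genes were named by rule. Candidates were called genes whose mean reached 100 and whose 2 media did not overlap, leaving out pseudogenes, small RNAs and predicted genes, and the rule takes the 12 highest and 12 lowest of their log2 fold changes. It also takes up to 3 called genes per list in each direction, 20 fixed genes, and the 4 highest and 4 lowest interactions. Some genes that the rule picked are not reported here. Genes and the 43 pathway and 7 marker lists were chosen with earlier results of these data known, so lists are described by counts and medians with no test. Alternatives were edgeR 4.0.16 and DESeq2 1.42.0 on the recovered reads, the 16-library fit, total-read and quantile scaling, 0.5 or 10 added before the logarithm, no filter or a mean of at least 50, FPKM (0.1 added, mean of at least 0.5), a replicate block, and leaving out each library. For the interaction and for supernatant against methionine-free fresh medium, edgeR and DESeq2 used 15 libraries. Replicate 1 of methionine-free fresh medium was left out because its recovered reads were taken as less certain, although its values too were whole numbers of reads. The limma fit was tested on simulated data. Same-numbered libraries of the 2 media had correlated residuals of -0.030 to 0.092 in depth-normalized values, so no pairing was used, and of 0.11 to 0.36 in FPKM, so FPKM counts are given with a block too. Differently numbered libraries gave -0.057 to 0.083 in depth-normalized values and -0.36 to 0.12 in FPKM. Promoter windows are RefSeq's (GRCm38.p6), and gene positions are GENCODE M21's (GRCm38).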

Additional observations from a re-analysis of the deposited data

Results flagged for a closer look

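Among the 4 libraries of 1 medium, 1 library stood apart from the other 3 by Dixon's criterion (its gap to the nearest library over the whole range) in 13 of the 354 gene and medium groups checked, and chance alone gives about 1 in 20. In supplemented supernatant the highest library stood apart for Asns (17856 depth-normalized reads), Cd2 (11734), Foxp3 (189.8), Kit (226) and Klrb1c (283). The lowest stood apart there for Cdh1 (304), Itgae (2279.6), Pdcd1 (507), Ppan (2909) and Slc7a11 (591). In complete fresh medium the lowest library stood apart for Atf5 (257), Cd4 (151) and Slc6a9 (398).

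The supernatant effect with methionine differed from the one without it at 6557 genes by limma's interaction term, adjusted over all genes tested. Among the genes named, the difference in log2 fold change was positive for Cox6a2 (5.70), Nupr1 (3.58), Angptl6 (3.46), Aldh1l2 (3.04) and Mat2a (0.77). It was negative for Itga7 (-2.74), Slc16a3 (-2.26), Ak4 (-2.22), Hmgcs1 (-1.68), Ctla4 (-1.44), Pdcd1 (-0.94) and Slc43a2 (-0.63).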

How the results depend on the processing

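The count of 7914 genes called between supplemented supernatant and complete fresh medium stayed between 7454 and 8069 under every alternative from the depth-normalized table and the recovered reads, with 7952 by edgeR and 7719 by DESeq2. Leaving out 1 library at a time gave 7455 to 7729 genes. The replicate block gave 8069. The labels do not say that replicate numbers pair the libraries, and residuals of same-numbered libraries were correlated above 0.1 in FPKM and not in the depth-normalized table. Differently numbered libraries also reached 0.12 in FPKM. FPKM gave 2034 genes, of which 2006 were also tested in the depth-normalized table and 1995 were called there with the same sign, and FPKM with the replicate block gave 6624. The interaction (6557 genes) was called at 750 genes from FPKM and at 3942 from FPKM with the replicate block, and at 6257 to 6500 genes on leaving out 1 library. Supernatant against methionine-free fresh medium (3344 genes) gave 32 genes from FPKM and 1441 from FPKM with the replicate block, and 2867 to 3470 on leaving out 1 library. The cause of the lower FPKM counts was not tested. Of 43 lists, 17 had a median above 0, and 16 to 18 had one on leaving out 1 library. Over all genes the median log2 fold change was -0.0046, and 0.0098 with total-read scaling and -0.0083 with quantile scaling. In the depth-normalized table the replicate block changed no call among the genes named except that of Il5, whose call it ended. From FPKM 27 results on named genes lost their call and 1, that of Pmel, gained it, and with the replicate block 1 of the 27, Nr1h3, was still not called. No gene named reversed under any alternative run.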

Other observations

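Several genes not described so far had supernatant effects of the same direction with and without methionine, and are given here after their values were seen. Cdh1, for the adhesion protein E-cadherin, measured 369, 382, 304 and 377 depth-normalized reads in supplemented supernatant and 119, 79.0, 127 and 109.7 in complete fresh medium. In supernatant it measured 100.1, 96.2, 112 and 86.6 and in methionine-free fresh medium 43.9, 29.7, 30.0 and 21.4. The groups did not overlap in either pair, with log2 fold changes of 1.73 with methionine and 1.67 without (limma adjusted p = 7.8e-13 and 8e-10). Il10, for the regulatory cytokine interleukin 10, had 1.5 and 1.26, and the lysine methyltransferase gene Smyd3 1.11 and 1.0. The bicarbonate transporter Slc4a4 gave 1.39 and 1.51 (0.79 with methionine when 10 was added before the logarithm), the tight junction gene Tjp1 0.98 and 0.88, and the repressor Hic1 -0.97 and -0.78. The interaction was not called for any of these 6 genes.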
